A study of Saccharomyces cerevisiae BY4743 with 24 samples.

Results

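The genes described here encode 57 factors of 60S ribosomal subunit assembly in Saccharomyces cerevisiae, chosen by name from the 5959 mRNA entries of the deposited table, and all 57 names were found. The series holds 24 RNA-seq libraries of the diploid strain BY4743. At 42 °C there were 4 pools of a polysome gradient with 3 replicates each, made from cells that had been moved by filtration into medium at 42 °C, where they stayed for 30 min. At 30 °C there were the same 4 pools with 3 replicates each, made from mid-log cells without that transfer, so filtration and resuspension belong to every comparison of temperatures. Both groups grew in synthetic medium with raffinose and met cycloheximide at harvest. The library names call pools 1 to 3 mono, di and tri, and give pool 4 only its number. The 24 libraries come from 6 gradients, and no label says that they are separate cultures. For heat over the mean of the pools p-values measure the spread between these gradients. In the other comparisons they measure the spread between libraries, with pools that share a gradient treated as independent.

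A 60S subunit is built around the large ribosomal RNAs, starting in the nucleolus on the transcript of RNA polymerase I and ending in the cytoplasm. DEAD-box helicases, scaffold proteins and methyltransferases act on the early particles, other factors carry in the 5S RNA or cut out the internal transcribed spacer 2 (ITS2), and GTPases and placeholder proteins act at later checkpoints. Export factors then take the particle through the nuclear pore, and cytoplasmic factors strip it for translation. In budding yeast these genes form much of the ribosome biogenesis regulon, which is known for being expressed together and for falling under stress. What was measured is the mRNA of these factors in ribosome-bound fractions, not the proteins or the particles.

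Levels are given as mRNA TPM, transcripts per 1000000 rescaled so that all mRNA entries of a library sum to 1000000. Each gradient mean averages the 4 pools of 1 gradient. Changes are differences of log2(mRNA TPM + 1), 42 °C minus 30 °C, tested with limma at a Benjamini-Hochberg adjusted p of 0.05, and the added 1 makes them understate the change of low genes. Genes entered the tests when they reached 10 mRNA TPM in at least 3 libraries, which kept 3949 genes and 50 of the 57 members. MAK5, IPI3, RIX1, DBP6, NSA1, RRP12 and DBP10 missed that filter, and their values come from a fit of 5777 genes with no filter. TPM keeps no read depth. The mRNA entries held 1423 to 4016 of 1000000 deposited TPM in pool 1 at 42 °C, against 21862 to 24652 in pool 1 at 30 °C, and 12751 to 27460 in the other pools at 42 °C, against 20482 to 37690 in the other pools at 30 °C. The 4 chaperone mRNAs used to check the labels were high in every gradient at 42 °C: HSP104 had gradient means of 5158, 7696 and 7589 mRNA TPM at 42 °C, against 50.4, 50.1 and 43.5 at 30 °C, and SSA4, HSP26 and HSP82 were also higher at 42 °C.

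At 42 °C nearly the whole set was low. Of the 50 members tested over the mean of the 4 pools, 49 fell, 0 rose and 1, SPB4, was not called; without the filter 56 of 57 fell. Among all genes, 32.4% were called lower and 31.2% higher with the filter, and 27.6% lower without it. The median member changed by -3.84 on the log2 scale with the filter and by -3.72 over all 57, against -0.02 and 0.01 for all genes. In 56 of the 57 members every gradient mean at 42 °C was below every gradient mean at 30 °C, as in 35.2% of the kept genes. Summed, the members held 0.0210%, 0.0201% and 0.0294% of mRNA TPM in the 3 gradients at 42 °C, against 0.176%, 0.313% and 0.342% at 30 °C, which is 11.8-fold less on average at 42 °C. Replicate 1 at 30 °C was the lowest of its group, and still far above all gradients at 42 °C. The members' median was -4.24 in TPM as deposited, -4.28 relative to 25S rRNA and -3.75 relative to spike-in RNA, while that of all genes was -1.01, -0.94 and -1.002 on these scales. The 24 libraries are bulk samples of gradient pools only. Fewer cells that hold these mRNAs, fewer copies per cell and fewer of the copies lying in the pooled fractions cannot be told apart.

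**Figure D1:**
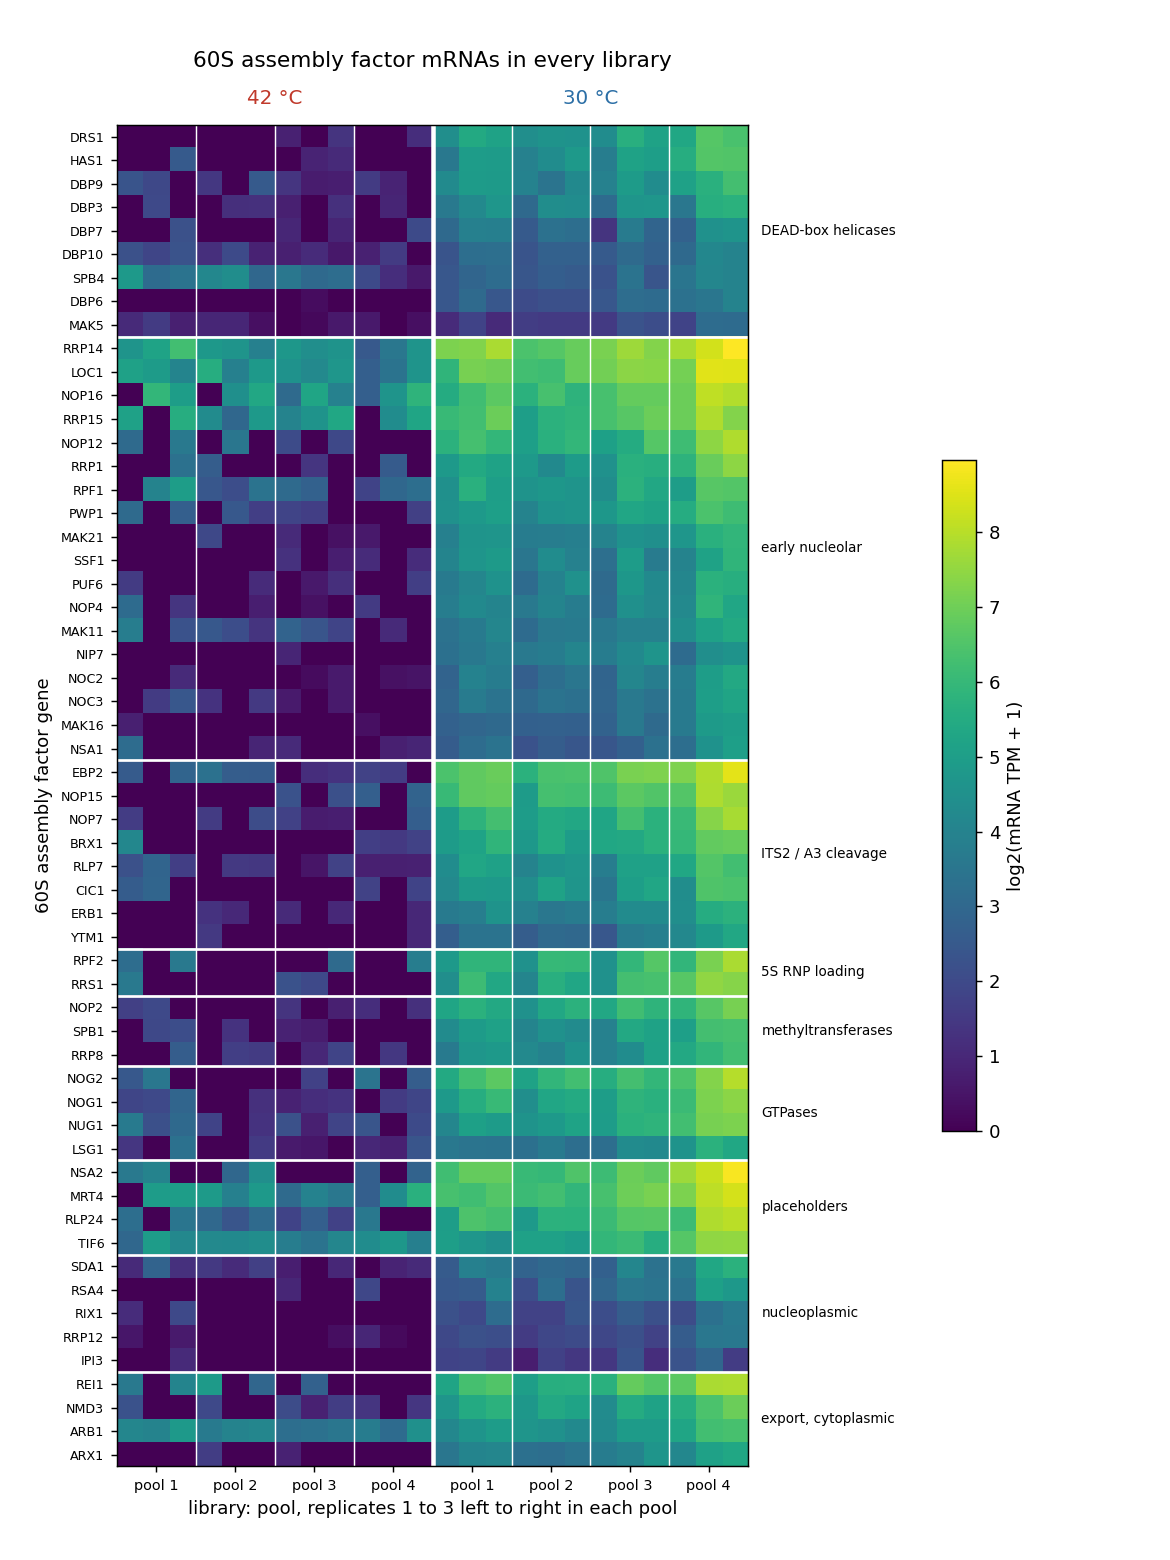
Level of the 57 members in each of the 24 libraries, as log2(mRNA TPM + 1), with rows grouped by step of assembly and sorted by mean level at 30 °C. The 12 columns at 42 °C on the left are mostly dark, with 324 of 684 values listed at 0, while all 684 values at 30 °C on the right are above 0.

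Many members were listed at 0 after heat. At 42 °C 324 of 684 member values (47.4%) were 0, and at 30 °C 0 of 684 were. Among all other mRNAs, 14.6% to 19.8% of values were 0 in the 4 pools at 42 °C, against 12.8% to 13.6% at 30 °C. At 42 °C 34 members were at 0 in 6 or more of 12 libraries. NIP7, an early factor of the large subunit, was above 0 in 1 library at 42 °C. RRP14, LOC1, TIF6, ARB1 and SPB4 were above 0 in every library at 42 °C. By pool, 80, 93, 66 and 85 of 171 member values were 0 in pools 1 to 4 at 42 °C. Since depth is unknown, a value of 0 shows only that the mRNA was listed at 0. How far the lower mRNA share of pool 1 moves these zeros was not tested.

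Of the 9 DEAD-box helicases, which remodel pre-ribosomal RNA with ATP, 6 were tested and 5 fell; without the filter 8 of 9 fell. DRS1, needed for a late nucleolar step of 25S rRNA maturation, had gradient means of 0.190, 0 and 0.691 mRNA TPM at 42 °C, against 24.9, 53.0 and 43.7 at 30 °C. Its level at 30 °C was the highest of the helicases and its change the largest, at -4.90 ± 0.32 (SE; limma adjusted p = 2.8e-05). HAS1, a helicase that works on both subunits, had 0, 0.214 and 1.46 mRNA TPM at 42 °C, against 21.2, 44.7 and 44.8 at 30 °C. DBP3, which promotes the A3 cleavage, fell by 3.70 on the log2 scale. DBP6, an early factor below the filter, was above 0 in 1 library at 42 °C, and had gradient means of 5.29, 7.44 and 7.67 mRNA TPM at 30 °C. SPB4 stood apart from the other helicases in this, with its values given by pool further on.

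Early nucleolar factors, the scaffold and RNA-binding proteins of the first particles, are the largest group, and all 17 tested of 18 fell. NOP12, an RNA-binding protein of the 5.8S region, had 2.65, 2.58 and 3.55 mRNA TPM at 42 °C, against 47.3, 86.5 and 113 at 30 °C, the largest change of the group at -4.93 ± 0.32 (SE; limma adjusted p = 2.5e-05). MAK21, which forms an early module with NOC2, had 1.12, 0 and 0.084 mRNA TPM at 42 °C, against 16.7, 27.6 and 29.3 at 30 °C. SSF1, a Brix-domain protein, fell by 4.01 on the log2 scale. The abundant members of the group kept a measurable level. RRP14 had 20.1, 22.9 and 34.2 mRNA TPM at 42 °C, against 147, 193 and 249 at 30 °C, and fell by 2.95 on the log2 scale. LOC1, which also binds localized mRNAs, had 27.2, 17.6 and 22.99 mRNA TPM at 42 °C, against 99.8, 189 and 194 at 30 °C. MAK11 had the smallest change of the group, -2.33 ± 0.34 (SE; limma adjusted p = 7.5e-04).

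NOP16, another early factor, was the least even between replicates. Its gradient means at 42 °C were 3.28, 35.7 and 35.6 mRNA TPM, against 74.9, 135 and 129 at 30 °C. Replicate 1 at 42 °C was thus far below the other 2. The change of -2.75 ± 0.93 (SE) passed with a limma adjusted p of 0.034, and it was -1.55 without that replicate, with an adjusted p of 0.0052. Without any 1 of the 3 replicates at 30 °C the adjusted p was 0.063 to 0.087, so the call for NOP16 depends on single gradients.

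All 8 factors of the ITS2 and A3 region fell, and their summed level was 40.5-fold lower at 42 °C. NOP15, an RNA-binding protein of the ITS2 foot, had 2.34, 0 and 2.47 mRNA TPM at 42 °C, against 63.9, 130 and 118 at 30 °C. Among all 57 members this was the largest change, -5.70 ± 0.43 (SE; limma adjusted p = 4.5e-05). NOP7, ERB1 and YTM1 form 1 complex, and each was low in every gradient at 42 °C. NOP7 had 1.57, 0.150 and 2.34 mRNA TPM at 42 °C, against 41.2, 84.0 and 96.9 at 30 °C. ERB1 had 0.644, 0.259 and 0.511 mRNA TPM at 42 °C, against 14.96, 22.1 and 26.8 at 30 °C. YTM1 had 0.449, 0 and 0.248 mRNA TPM at 42 °C, against 8.10, 14.6 and 17.6 at 30 °C. RLP7, a relative of the ribosomal protein uL30, had 1.09, 2.32 and 1.76 mRNA TPM at 42 °C, against 21.7, 47.3 and 41.8 at 30 °C. EBP2, the member of this group with the highest level at 30 °C, fell by 5.28 on the log2 scale.

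The pair that loads the 5S ribonucleoprotein, RPF2 and RRS1, fell together. RRS1 had 3.74, 0.730 and 0 mRNA TPM at 42 °C, against 38.8, 93.6 and 80.6 at 30 °C, a change of -5.15 ± 0.50 (SE; limma adjusted p = 1.2e-04). RPF2 had 2.06, 0 and 7.98 mRNA TPM at 42 °C, against 32.4, 81.0 and 110 at 30 °C. In neither gene did the gradients of the 2 temperatures overlap. All 3 methyltransferases of 25S rRNA also fell. NOP2, encoded on chromosome XIV at 510540 to 512396 of build R64, had 1.27, 0.738 and 0.519 mRNA TPM at 42 °C, against 39.5, 65.7 and 72.6 at 30 °C. That is a change of -5.07 ± 0.30 (SE; limma adjusted p = 1.8e-05). RRP8 had the smallest change of the 3, at -3.90 ± 0.43 (SE; limma adjusted p = 2.1e-04).

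Each of the 4 GTPases fell, and all of them had less than 4 mRNA TPM on average at 42 °C. NOG1, which acts on nucleolar particles, had 0.863, 1.55 and 3.02 mRNA TPM at 42 °C, against 36.9, 71.5 and 82.2 at 30 °C. NOG2, which holds the nucleoplasmic particle until the 5S RNA has turned, had 3.57, 3.29 and 1.31 mRNA TPM at 42 °C, against 52.2, 91.4 and 122 at 30 °C. NUG1 had 5.51, 1.06 and 3.61 mRNA TPM at 42 °C, against 36.1, 63.0 and 66.6 at 30 °C. The groups did not overlap in any of these 3 genes. LSG1, the cytoplasmic GTPase that frees NMD3, changed least, by -3.04 ± 0.41 (SE; limma adjusted p = 5.4e-04). The NOG2 gene holds the small nucleolar RNA SNR191 in its intron.

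The 4 proteins grouped as placeholders occupy sites that are filled or freed later, and all 4 fell by very different amounts. NSA2 had 4.22, 5.46 and 6.67 mRNA TPM at 42 °C, against 102, 148 and 194 at 30 °C, a change of -5.20 ± 0.25 (SE; limma adjusted p = 9.4e-06). RLP24, which holds the site of ribosomal protein eL24, had 7.24, 2.41 and 5.03 mRNA TPM at 42 °C, against 48.7, 118 and 122 at 30 °C. MRT4, the stand-in for the stalk protein P0, had 10.3, 19.4 and 29.8 mRNA TPM at 42 °C, against 94.1, 135 and 158 at 30 °C. TIF6, which keeps 60S particles from joining 40S subunits, is on chromosome XVI at 592332 to 593069 and had one of the smaller changes. It had 14.3, 20.9 and 16.8 mRNA TPM at 42 °C, against 55.3, 75.5 and 69.2 at 30 °C. Its change was -1.60 ± 0.22 (SE; limma adjusted p = 5.3e-04), with no overlap between the groups.

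Factors of the nucleoplasm were low at both temperatures, and only 2 of 5 passed the filter. Both of these fell, and all 5 fell without it. SDA1 had 0.900, 2.05 and 1.42 mRNA TPM at 42 °C, against 7.02, 19.2 and 20.0 at 30 °C. RIX1, which gives its name to a remodelling complex, had 0.294, 0 and 0.739 mRNA TPM at 42 °C, against 3.17, 4.93 and 6.89 at 30 °C. RRP12, an export factor of both subunits, had 0.355, 0.042 and 0.205 mRNA TPM at 42 °C, against 3.14, 5.18 and 5.01 at 30 °C. RSA4 had the largest change of this group, -3.09, and IPI3 the smallest, -1.66 without the filter. IPI3 had at most 3.93 mRNA TPM in a gradient at 30 °C.

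Among the 4 factors of export and the cytoplasm, all fell, and ARB1 least. NMD3, the export adaptor, had 2.89, 0.189 and 0.941 mRNA TPM at 42 °C, against 29.1, 53.4 and 61.5 at 30 °C. ARX1, which travels with the particle, had 0.732, 0 and 0 mRNA TPM at 42 °C, against 12.2, 18.1 and 22.5 at 30 °C. REI1, which releases ARX1 in the cytoplasm, had 9.86, 1.46 and 5.57 mRNA TPM at 42 °C, against 55.1, 116 and 116 at 30 °C, a change of -4.79 ± 0.44 (SE; limma adjusted p = 9.0e-05). The REI1 gene is overlapped by SLM6 on the opposite strand. ARB1, an ATPase of the ABC family on chromosome V at 223367 to 225199, had 12.3, 11.8 and 19.1 mRNA TPM at 42 °C, against 24.2, 37.6 and 39.7 at 30 °C. Its change was -1.08 ± 0.26 (SE; limma adjusted p = 0.0092). Both neighbours of ARB1 rose, EDC2 by 3.78 at a distance of 290 nucleotides and PHM8 by 5.93 at 689 nucleotides. Their part in the values of ARB1 was not tested.

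**Figure D2:**
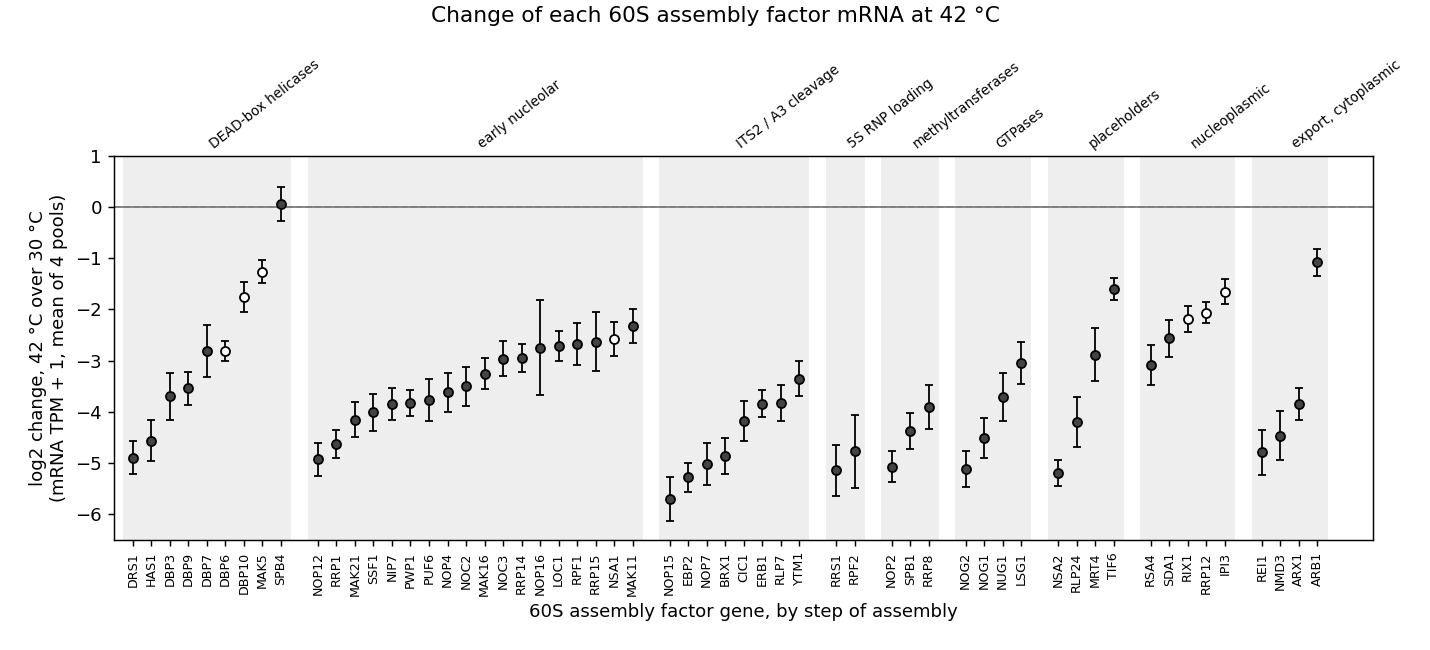
Log2 change of each member at 42 °C over 30 °C (mean of the 4 pools, bars ± SE from limma, 6 gradients), grouped by step of assembly. Filled points passed the filter, open points did not, and the dashed line at 0.01 is the median of all genes. Values run from -5.70 for NOP15 to 0.07 for SPB4, and each group of more than 2 members spans over 1 log2 unit.

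The level that remained at 42 °C was uneven. RRP14, NOP16, LOC1, RRP15, MRT4 and TIF6 had the highest means there and held 56.4% of the members' summed level at 42 °C, against 27.7% at 30 °C. Summed levels fell 44.0-fold for the methyltransferases, 40.5-fold for the ITS2 and A3 factors and 30.1-fold for the 5S pair, and 9.05-fold for the export and cytoplasmic factors and 8.11-fold for the early nucleolar factors. Some of the remaining levels are coarse. In pool 4 of replicate 1 at 42 °C NOP15, NOP16, NSA2, MRT4 and LOC1 all had the same 5.63 mRNA TPM. In pool 1 of replicate 3 at 42 °C REI1 and LOC1 had 15.5, NOP16 and MRT4 30.9, and RRP15 46.4. How far such shared steps shape the uneven levels and the folds of the groups was not tested. Across the 57 members, log2 level at 30 °C and change at 42 °C had a Pearson correlation of -0.57. As a description this shares 1 set of 30 °C libraries on both axes, and the added 1 limits how far a low gene can fall.

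The decrease was present in each pool. In pool 1, 45 of 50 members fell and 0 rose, where 17.1% of all genes were called lower and 39.7% higher. In pool 2, 42 fell and 1 rose, where 18.8% were called lower and 33.2% higher. In pool 3, 46 fell and 0 rose, where 28.1% were called lower and 20.9% higher. In pool 4 all 50 fell, where 43.8% were called lower and 13.8% higher. Without the filter 49, 48, 53 and 57 of 57 members fell in pools 1 to 4, where 13.7%, 14.9%, 21.8% and 39.2% of all genes were called lower. The members' median was -3.26, -3.15, -3.67 and -4.87 on the log2 scale in pools 1 to 4, and that of all genes 0.65, 0.42, -0.24 and -0.94. Set against the median of all genes, the members thus lay -3.91, -3.57, -3.43 and -3.93 apart. The members not called in pool 1 were NOP16, RPF1, SPB4, TIF6 and ARB1, and in pool 3 NOP16, MAK11, SPB4 and RRP15. With the replicate block NOP16 was called lower in pools 1 to 3, and with median scaling SPB4 was the 1 member not called in pool 1.

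**Figure D3:**
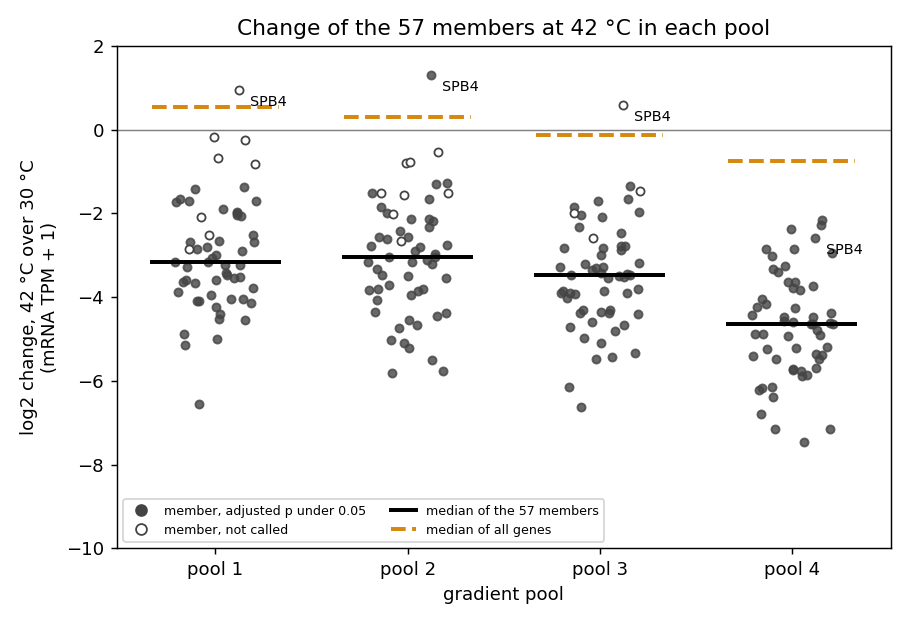
Log2 change at 42 °C over 30 °C of the 57 members in each pool, from the fit without a filter. The solid lines (members' medians) lie more than 3 log2 units below the dashed lines (medians of all genes) in each pool, and both lines are lowest in pool 4; SPB4 is above 0 in pools 1 to 3 and below in pool 4.

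The members' share of mRNA TPM was ordered differently along the gradient at the 2 temperatures. At 42 °C it was 0.0340% ± 0.0069, 0.0230% ± 0.0041, 0.0181% ± 0.0013 and 0.0190% ± 0.0101 in pools 1 to 4 (SD, n = 3). At 30 °C it was 0.203% ± 0.055, 0.152% ± 0.030, 0.231% ± 0.062 and 0.524% ± 0.211 in pools 1 to 4 (SD, n = 3). The share at 42 °C was below that at 30 °C by 5.99-fold in pool 1, 6.59-fold in pool 2, 12.8-fold in pool 3 and 27.6-fold in pool 4. As a share of all deposited TPM, rRNA included, it was below by 50.03-fold, 14-fold, 17.8-fold and 25.7-fold in pools 1 to 4, so which pool differed most depends on the scale. The spread in pool 4 was wide at both temperatures, with 0.0117%, 0.0146% and 0.0305% at 42 °C, against 0.286%, 0.594% and 0.690% at 30 °C. Ribosomal protein mRNAs filled 3.86%, 3.25%, 1.71% and 0.903% of mRNA TPM in pools 1 to 4 at 42 °C, against 65.1%, 63.0%, 58.5% and 45.7% at 30 °C. With them taken out of the total the members' share was still 0.0354% in pool 1 and 0.0191% in pool 4 at 42 °C, against 0.581% and 0.947% at 30 °C.

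**Figure D4:**
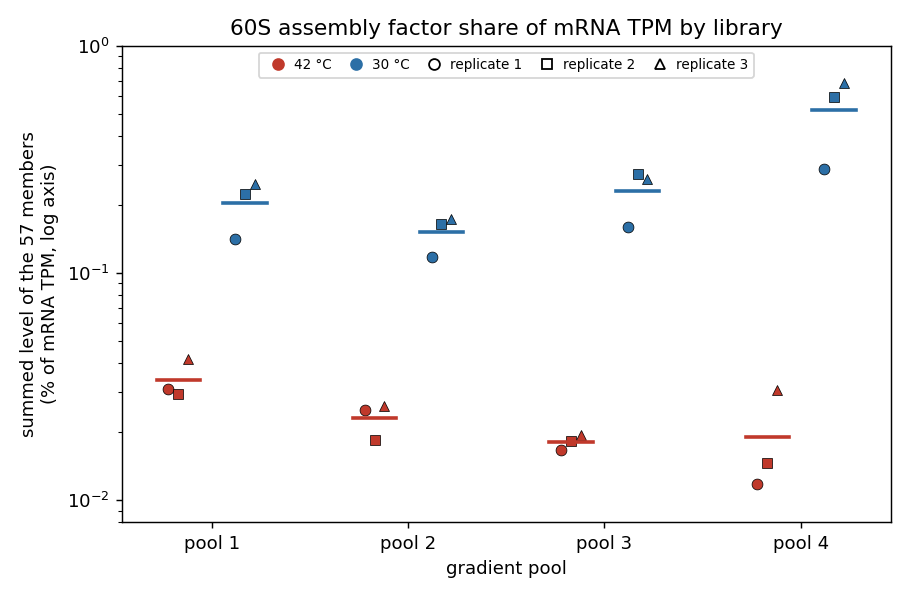
Summed level of the 57 members as a percent of mRNA TPM (log axis) by pool, with 1 point per library and lines at the mean of 3 replicates. Every library at 42 °C, at most 0.0419%, lies below every library at 30 °C, at least 0.117%, and pool 4 is highest at 30 °C.

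Most members were highest in pool 4 at 30 °C. This pool was above pool 3 in all 3 gradients for 55 of the 57 members, and for 67.9% of kept genes. Pool 4 was above pool 1 in all 3 gradients for 52 members, and for 72.1% of kept genes. Pool 2 was below pool 1 in all 3 gradients for 34 members, and for 24.1% of kept genes. In the limma fit 14 members were higher in pool 4 than in pool 1 and 0 lower, where 47.1% of all genes were called higher and 1.34% lower. The members' median difference was 1.21, against 1.18 for all genes. Without the filter 17 of 57 members were higher, where 37% of all genes were, and the medians were 1.20 for the members and 0.97 for all genes. The 4 pools of 1 replicate at 1 temperature come from 1 gradient. With the gradient as a block 23 members were higher, where 53.6% of all genes were. With libraries scaled to a common median, 1 member was higher, TIF6, and 0 lower, where 4.53% of all genes were called higher and 3.57% lower. The count without a replicate at 30 °C was 8, 1 and 2 for replicates 1, 2 and 3, where 38.3%, 24.5% and 27.9% of all genes were called higher.

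At 42 °C few members were called between pool 4 and pool 1. SPB4 and RRP14 were lower in pool 4 and 0 members higher, where 11.4% of all genes were called lower and 1.7% higher. The median member was at -0.38, against -0.36 for all genes. The gradient block gave 6 members lower and 1 higher, where 16.4% and 3.72% of all genes were. With median scaling NOP15 and SSF1 were higher in pool 4 and SPB4 lower, where 11.5% of all genes were called higher and 5.04% lower. The direction of the members' median depends on the scale. It was -0.38 in mRNA TPM, 0.25 with median scaling, and 0.51 in TPM as deposited, where the mRNA share of pool 1 enters. The median of all genes was -0.36, 0.27 and 2.10 on these scales, so in TPM as deposited the members lay below it.

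The change of the pool difference with heat was tested as an interaction. It was lower at 42 °C for 18 members and higher for 0, where 48.2% of all genes were called lower and 0.304% higher. The median member had -1.79, against -1.56 for all genes. Without the filter 23 of 57 members were called lower, where 40.2% of all genes were. The gradient block gave 22 members of 50, where 56.1% of all genes were called. After median scaling 0 members were called in either direction, where 0.152% of all genes were called lower and 0.304% higher. Without replicate 2 or replicate 3 at 30 °C 4 and 8 members were called, where 22.9% and 27.7% of all genes were. The largest falls were those of REI1 (-3.98), NUG1 (-3.66) and SPB4 (-3.55), and the most positive values those of NOP15 (1.08), SSF1 (0.27) and NIP7 (-0.46), none of these last 3 called.

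SPB4 was the only member that was not lower over the mean of the pools. This helicase, on chromosome VI at 145114 to 146934, had gradient means of 14.5, 9.12 and 6.35 mRNA TPM at 42 °C, against 5.63, 9.47 and 8.08 at 30 °C. The groups overlapped, and the change was 0.07 ± 0.34 (SE; limma adjusted p = 0.87). By pool, SPB4 averaged 14.9, 14.7, 8.80 and 1.62 mRNA TPM in pools 1 to 4 at 42 °C, against 6.33, 4.84, 5.90 and 13.8 at 30 °C. At 42 °C pool 4 was the lowest pool in each replicate, and at 30 °C the highest. The heat changes were 0.95, 1.31, 0.59 and -2.59 in pools 1 to 4, of which pool 2 (limma adjusted p = 0.024) and pool 4 (limma adjusted p = 1.1e-04) passed. With median scaling the rise in pool 2 did not pass, at 0.90 with an adjusted p of 0.13, and the fall in pool 4 did. On the TPM as deposited the mean change of SPB4 was -0.91 with a limma adjusted p of 0.016, so its direction depends on the scale.

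TIF6 and ARB1 also lay closer to their 30 °C levels in pools 1 and 2 than in pools 3 and 4. The median heat change of all genes ran the same way, at 0.65, 0.42, -0.24 and -0.94 in pools 1 to 4. TIF6 averaged 18.1, 18.6, 12.9 and 19.7 mRNA TPM in pools 1 to 4 at 42 °C, against 25.9, 32.6, 58.1 and 150 at 30 °C. Its heat changes in pools 1 and 2, -0.68 and -0.78, did not pass, and those in pools 3 and 4, -2.09 and -2.86, did. With median scaling all 4 passed. The interaction for TIF6 was -2.18 ± 0.54 (SE; limma adjusted p = 0.0049) in mRNA TPM and -0.42 (adjusted p = 0.83) with median scaling. ARB1 averaged 19.8, 14.4, 9.32 and 14.03 mRNA TPM in pools 1 to 4 at 42 °C, against 23.5, 21.3, 25.8 and 64.7 at 30 °C. With median scaling ARB1 too was called lower in all 4 pools. In both genes the replicates of pool 4 at the 2 temperatures lay far apart, and those of pool 1 overlapped.

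**Figure D5:**
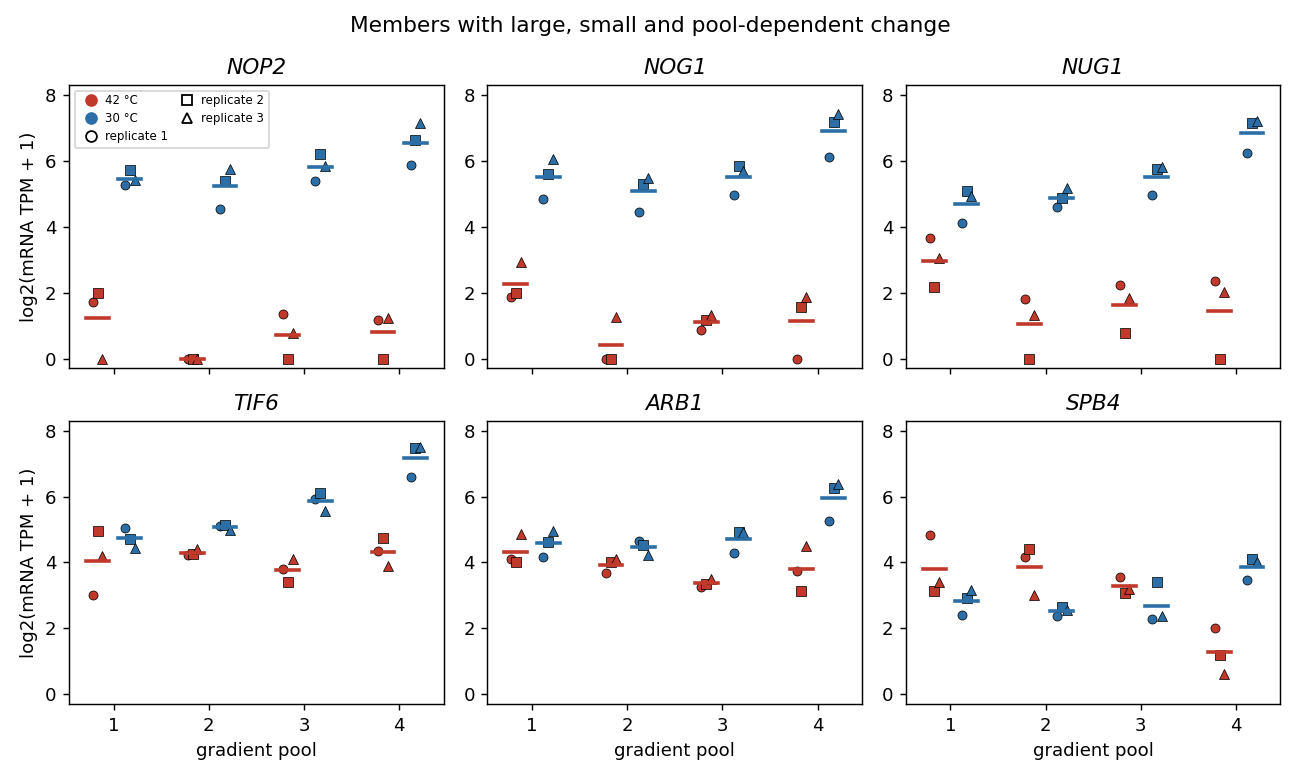
Level of 6 members as log2(mRNA TPM + 1) in each library by pool, with lines at the mean of 3 replicates. NOP2, NOG1 and NUG1 are low at 42 °C in each pool, TIF6 and ARB1 separate from 30 °C mainly in pools 3 and 4, and SPB4 at 42 °C is lowest in pool 4.

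A second list of 39 further 60S factors held 38 in the table, and the one not in it was not analysed here. Of the 28 that passed the filter, 25 fell, 1 rose and 2 were not called, with a median of -2.89. Among all genes 32.4% were called lower and 31.2% higher. Without the filter 34 of 38 fell, where 27.6% of all genes were called lower. CGR1, ALB1, ECM1 and RRP17 had the largest changes, of -4.81, -4.68, -4.48 and -4.35. The 2 not called were SDO1, the yeast SBDS protein that acts in the release of TIF6, with a change of -0.09 (limma adjusted p = 0.80), and RCM1, a 25S methyltransferase, with -0.67 (limma adjusted p = 0.081). SDO1 had 114, 72.1 and 60.3 mRNA TPM at 42 °C, against 92.1, 76.4 and 81.4 at 30 °C, so the groups overlapped. In TPM as deposited the change of SDO1 was -1.24 (limma adjusted p = 0.0029), and relative to 25S rRNA it was -1.11 (limma adjusted p = 0.0063). These 2 genes and REH1 are named because they were the exceptions, after their values were seen.

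REH1, the paralog of REI1, was the 1 gene of that list that rose. It had 27.3, 22.3 and 34.1 mRNA TPM at 42 °C, against 9.90, 9.76 and 10.2 at 30 °C, a change of 1.61 ± 0.22 (SE; limma adjusted p = 5.5e-04). REI1 and REH1 thus moved in opposite directions in mRNA TPM. REH1 was above 0 in every library at 42 °C, while REI1 was listed at 0 in 7 of 12. In TPM as deposited the change of REH1 was 0.56 with a limma adjusted p of 0.080, and relative to 25S rRNA it was 0.65 with a limma adjusted p of 0.036. SSF2, a near-identical paralog of SSF1 that missed the filter, had 0.110, 0.402 and 0.459 mRNA TPM at 42 °C, against 2.96, 6.52 and 6.80 at 30 °C. How reads were split between SSF1 and SSF2 is not known.

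Other genes of ribosome production moved the same way, where 32.4% of all genes were called lower and 31.2% higher. Of 45 tested factors of 40S subunit assembly 43 fell and 0 rose, with a median of -3.16 and the largest changes in RRP36 (-5.48), EMG1 (-5.12), SAS10 (-4.98) and UTP11 (-4.95). RRP7 (-0.70) and RIO1 (-0.47) were not called. Without the filter 54 of 56 of these factors fell, where 27.6% of all genes were called lower. All 7 tested genes of RNA polymerase I fell, with a median of -3.70. RPA12 had the largest change of these, -4.79, and RPA14 the smallest, -1.53. Of 76 genes for proteins of the large subunit 75 fell, with a median of -6.63, and 1 rose, RPL15B. It averaged 133 mRNA TPM at 42 °C, against 41.8 at 30 °C. Its near-identical paralog RPL15A averaged 45.0 at 42 °C, against 4150 at 30 °C. How reads were split between these 2 genes was not tested. No difference between these lists and the assembly factors was tested.

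Of 8 regulators of these genes only 3 passed the filter. STB3, a repressor that binds the RRPE element of biogenesis promoters, had 19.7, 20.4 and 20.6 mRNA TPM at 42 °C, against 5.12, 8.32 and 7.89 at 30 °C. It rose by 1.52 ± 0.21 (SE; limma adjusted p = 5.5e-04), but in TPM as deposited by 0.48 with an adjusted p of 0.093. IFH1, a coactivator of ribosomal protein genes, fell by 1.15 on the log2 scale, and FHL1 was at -0.58 (limma adjusted p = 0.12). The 5 others had low levels, among them DOT6, a repressor, with 5.27, 4.99 and 5.92 mRNA TPM at 42 °C, against 3.44, 5.06 and 3.59 at 30 °C. SFP1, TOD6, SCH9 and TOR1 averaged 1.29, 0.62, 3.72 and 1.83 mRNA TPM at 42 °C, against 1.31, 1.08, 4.86 and 1.80 at 30 °C.

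The members are 546 to 3687 nucleotides long, with a median of 1557. Across them log2 length and the difference of pool 4 over pool 1 at 30 °C had a Pearson correlation of -0.26 (n = 57), against 0.39 across the 3949 kept genes. Log2 length and log2 level at 30 °C had a correlation of -0.58 across members. These are descriptions over genes that share the same libraries.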

How the data were processed

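The submitters' processing notes name Trim Galore 0.6.5, Salmon 1.9.0 and build R64. The deposited table gives TPM for 6087 entries (5959 mRNA, 5 rRNA, 5 spike-in), and its 6082 gene IDs all matched the RefSeq table used for symbols and positions. The libraries had no rRNA depletion, so TPM was rescaled to 1000000 over the mRNA entries. Depth is unknown, since TPM keeps none, and precision was read from the replicates.

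Members and lists were chosen with earlier results of these data known. Log2 of mRNA TPM plus 1 was fitted with limma 3.58.1 (R 4.3.3), with trend and Benjamini-Hochberg adjustment at 5%, 2-sided. Heat over the mean of the pools used 6 gradient means, and the other comparisons 24 libraries with 8 group means. Of 67 genes simulated at a change of 4-fold in the gradient means, 73.1% were recovered, and of 67 at 2-fold 2.99%, with 5 false calls among 3949 genes. The simulation changed 200 genes, while 1280 were called lower and 1233 higher in the data, and the adjustment depends on that number. Its noise was normal, with an assumed spread between gradients. These shares are therefore not the recovery of the fits to the data.

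Same-numbered gradient means of the 2 temperatures had correlations of 0.152, 0.142 and 0.191 in their deviations from the group means. Those within pools were 0.035 to 0.099. The numbers were therefore read as pairing the gradient means, though no label says so. The main tests did not use this pairing, which entered only the alternative fits with the replicate block. For NOP16 over the mean of the pools the limma adjusted p was 0.034 without the block and 0.0087 with it.

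The named genes were a fixed set, the largest and smallest change of each group by role, the 3 highest and 3 lowest interactions, and exceptions of at most 5 per comparison; RRP14, LOC1, NOP16, EBP2, DBP6, RRP15 and the examples of other lists with the largest changes were added by rank or as exceptions. Alternatives were other pseudocounts, filters and scales, a block and leaving out each replicate. The block was the replicate number for heat comparisons and the gradient for comparisons between pools. Figures were drawn with matplotlib 3.10.9.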

Additional observations from a re-analysis of the deposited data

Results flagged for a closer look

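In 3 members the heat change of the difference between pool 4 and pool 1 passed the test of the interaction and was the most negative among the members. REI1 had -3.983 (limma adjusted p = 0.0339), NUG1 -3.665 (limma adjusted p = 0.00303) and SPB4 -3.546 (limma adjusted p = 9.4e-04). With libraries scaled to a common median these values were -2.23 (adjusted p = 0.60), -1.91 (adjusted p = 0.29) and -1.79 (adjusted p = 0.29), and none was called. REI1 was listed at 0 in all 3 libraries of pool 4 at 42 °C, and NUG1 in 1 of them. In pool 1 at 42 °C REI1 had 11.2, 0 and 15.5 mRNA TPM. There RRS1 and NSA2 had the same 11.2 in replicate 1, and LOC1 the same 15.5 in replicate 3.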

How the results depend on the processing

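Over the mean of the pools the number of members lower was 49, and it was within 1.5 times of that under every alternative run except 2. It was 23 with a filter of 50 mRNA TPM, where only 23 members were tested and 710 of 1903 genes were lower. It was 30 with the spike-in scale, where 281 of 3949 genes were lower. Replicate 1 of both temperatures stood apart in its spike-in level, and with the replicate number as a block on that scale the count was 49. The replicate block alone changed no member's call over the mean of the pools. For comparisons between pools the block was the gradient. Beyond the counts given with those comparisons a block moved no count by over 1.5 times. Leaving out 1 replicate gave 48 to 49. With the filter of 50, 20, 18, 21 and 23 of 23 members were lower in pools 1 to 4, where 407, 450, 672 and 899 of 1903 genes were. On the spike-in scale 19 were lower in pool 1 and 21 in pool 2, where 264 and 253 of 3949 genes were. In pool 2 the 1 member higher, SPB4, became 0 with the filter of 50, median scaling with or without the filter, TPM as deposited, the 25S rRNA scale and both fits on the spike-in scale, and leaving out 1 replicate gave 0 to 1. In pool 1 leaving out 1 replicate gave 0 to 1 members higher.

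Of the pool comparisons, the number of members higher in pool 4 at 30 °C was 14 of 50, where 1861 of 3949 genes were higher. With pseudocounts of 0.1 and 5 it was 3 and 35, where 1618 and 2178 genes were. The members' standing against all genes thus depends on the pseudocount. With the filter of 50 it was 4 of 23, where 1001 of 1903 genes were. Median scaling gave 1 member, with or without the filter, where 179 of 3949 and 246 of 5777 genes were higher. The 25S scale gave 6, the spike-in scale 0 and the gradient block 23, where 1252, 1 and 2117 genes were. Without 1 replicate the count was 1 to 22, the lowest without replicate 2 at 30 °C. At 42 °C the 2 lower, SPB4 and RRP14, became 1 with median scaling, with or without the filter, where 199 of 3949 and 194 of 5777 genes were lower. The count was 0 in TPM as deposited, on the 25S scale and in both fits on the spike-in scale, where 28, 69, 5 and 38 genes were. The gradient block gave 6, where 648 genes were, and leaving out 1 replicate gave 2 to 4. With the filter of 50 it was 1, where 273 of 1903 genes were, and SPB4 was not among the members tested. The 0 higher there became 8 in TPM as deposited, 4 on the 25S scale and 5 on the spike-in scale with the gradient block. In these fits 2866, 1829 and 2471 of 3949 genes were higher. It became 2 with median scaling (3 without the filter), where 455 of 3949 genes (680 of 5777) were. The gradient block gave 1, where 147 of 3949 genes were, and leaving out 1 replicate gave 0 to 1. In the interaction 18 members were lower at 42 °C, where 1902 of 3949 genes were. With pseudocounts of 0.1 and 5 the count was 9 and 32, where 1656 and 2237 genes were. With the filter of 50 it was 8 of 23, where 968 of 1903 genes were. Median scaling gave 0, with or without the filter, where 6 of 3949 and 12 of 5777 genes were. TPM as deposited gave 1, and the 25S and spike-in scales 0 each, where 15, 2 and 1 genes were. The spike-in scale with the gradient block gave 2, where 9 genes were. Without 1 replicate 4 to 25 members were lower, and 0 to 1 were higher. The cause was not tested.

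The members' median less that of all genes, -3.82 over the mean of the pools, was -5.89 and -2.41 with pseudocounts of 0.1 and 5, -3.73 without the filter (also with median scaling), -4.53 with the filter of 50, -3.23 in TPM as deposited, -3.35 on the 25S scale, -2.75 on the spike-in scale (also with the block) and -4.04 to -3.65 without 1 replicate. In pool 1, -3.91 became -5.69, -2.52, -3.71, -4.30, -2.46, -2.92 and -2.27 under the same alternatives in that order, and -4.21 to -3.80 without 1 replicate. In pool 4, -3.93 became -5.93 and -2.55 with the pseudocounts, -4.47 with the filter of 50, -3.81 on the 25S scale, -3.36 on the spike-in scale and -4.16 to -3.71 without 1 replicate. For pool 4 over pool 1 at 42 °C, -0.02 became 0.064 with a pseudocount of 5, -1.60 in TPM as deposited, -0.91 on the 25S scale, -1.19 on the spike-in scale and -0.21 to 0.082 without 1 replicate. At 30 °C, 0.033 became -0.028 and 0.14 with the pseudocounts and 0.23 without the filter, also with median scaling. For the interaction, -0.23 became -1.80 in TPM as deposited, -0.94 on the 25S scale and -1.24 on the spike-in scale. A library factor cancels in this difference of medians when nothing is added to the levels. On the deposited, 25S and spike-in scales the difference therefore moves only through the added 1.

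The median of all genes over the mean of the pools moved to -1.01 in TPM as deposited, to -0.94 on the 25S scale and to -1.002 with spike-ins. As a percent of all deposited TPM the members held 9.5e-05, 3.7e-04, 4.4e-04 and 4.3e-04 in pools 1 to 4 at 42 °C, against 0.0047, 0.0052, 0.0078 and 0.011 at 30 °C. With ribosomal protein mRNAs taken out of the total the share at 30 °C was 0.581%, 0.409%, 0.550% and 0.947%. The change of SPB4, 0.07, was -0.028 with a pseudocount of 0.1, -0.91 in TPM as deposited, -0.82 on the 25S scale, -0.70 on the spike-in scale, and -0.23 to 0.31 without 1 replicate; that of SDO1, -0.09, was -0.37 to 0.14 without 1 replicate. Median scaling without the filter was chosen after seeing the data. Values at 0 limit the folds of members listed at 0 at 42 °C, and the depth behind them is unknown.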
